A study of Homo sapiens with 34 samples.

Results

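Long introns, those over 5000 bases, were followed in the splicing table of a human cell-line study that edited 5 genes. An intron was included when it had at least 20 junction reads in each of the 4 control libraries. Of 192950 introns in the table, 44986 were over 5000 bases, and 14547 of these, in genes with 5848 different names, passed the read minimum. The introns were thus selected on length and on control read totals, and not on their retention, so read depth is not reported as a finding. In all 34 libraries 9365 of the 14547 (64.4%) reached 20 reads.

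The cells were RPE-1, an hTERT-immortalised line of retinal pigment epithelium. They were infected at an estimated dose of under 1 lentivirus per cell with a hybrid guide RNA (hgRNA), a transcript that carries a Cas9 guide and a Cas12a guide so that a segment between both sites can be deleted. Selection used puromycin at 20 µg/ml for 72 h, and RNA was taken after 4 more days, from cells at subconfluent density. No cloning is described, so each library is treated here as a pool of selected cells. Ribosomal RNA was depleted from total RNA, and the libraries were stranded. The edited groups were an intronic deletion in DDX5 (hgRNAs 1 and 2), a deletion across an exon with a premature termination codon (PTC exon) in DDX17 (hgRNAs 1 and 2), an intronic deletion in FNBP4 (hgRNAs 1 and 2), a deletion across a PTC exon in FNBP4 (hgRNAs 3 and 4), a deletion across a PTC exon in HDAC7 (hgRNAs 1 and 2), an intronic deletion in HNRNPD (1 hgRNA) and knockouts of DDX5, DDX17, FNBP4 and HDAC7 (an exonic Cas9 guide with an intergenic Cas12a guide). The controls were 2 hgRNAs that cut intergenic sites. Each of the 17 hgRNAs had 2 biological duplicates, which gives 30 edited libraries and 4 control libraries. All 10 comparisons below use the same 4 control libraries.

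Some labels limit these groups. The libraries labelled HDAC7 knockout list the Cas9 guide of the FNBP4 knockout in both guide positions, and that guide matches FNBP4 at chr11:47751245-47751264 (GRCh38) and not HDAC7, so they are called by their label only. In the authors' deposited table, which combines replicates, DDX5 had 73.4 RPKM in the DDX5 knockout against 238 RPKM in controls (log2 fold change -1.85, false discovery rate 9.67e-14), and 190 and 194 RPKM under DDX5 deletion hgRNAs 1 and 2 (false discovery rates 0.24 and 0.337). DDX17 had 102 RPKM in its knockout against 137 RPKM in controls in the same authors' deposited table (false discovery rate 0.000681). Libraries held 13572253 to 21086562 junction reads over introns. Epithelial and mesenchymal markers were high in the authors' deposited table (KRT18 251 and VIM 3199 RPKM in controls), the pigment-epithelium regulators MITF and OTX2 stood at 9.14 and 6.39 RPKM, and the differentiated-cell genes RPE65, RLBP1 and TYR were at 0.05 RPKM or less.

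The spliceosome removes an intron by joining a 5′ splice site, usually GT in the DNA, to a 3′ splice site, usually AG. In a long intron the polymerase needs many minutes to travel from one site to the other, so the 5′ end of the intron exists as RNA well before the 3′ end does. Intron retention is the presence of the intron in RNA that is otherwise processed, and detained introns are those kept in nuclear polyadenylated RNA. DDX5 and DDX17 are DEAD-box RNA helicases that take part in transcription and splicing, HNRNPD (AUF1) is an RNA-binding protein, FNBP4 is a formin-binding protein with WW domains, and HDAC7 is a class IIa histone deacetylase.

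The junctions below are those whose reads carry the results. Each line has 15 bases on either side of a junction, 5′ to 3′ on the transcript strand, read from GENCODE v29 transcripts on GRCh38. In the exon-exon lines the upstream exon is in lower case and the downstream exon in capitals. In the lines for an intron end the exon is in lower case and the intron in capitals, so the GT or AG of the splice site starts or closes the capitals.
FNBP4 intron 12, exon-exon, around chr11:47724779-47731373, minus strand: ctgaaacttccacagGTTCTCTTTGTAAAG
FNBP4 intron 12, upstream end, chr11:47731359-47731388: ctgaaacttccacagGTGAGACAATTTACC
FNBP4 intron 12, downstream end, chr11:47724764-47724793: TACCTGTTTTCATAGgttctctttgtaaag
DNAJB6 intron 8, exon-exon, around chr7:157385612-157409794, plus strand: ccttaacaataaatgGTGTGGCCGACGACG
DNAJB6 intron 8, upstream end, chr7:157385597-157385626: ccttaacaataaatgGTAAGGAGCAGCTGC
N4BP2L2 intron 2, upstream end, chr13:32527393-32527422, minus strand: ggaaccagaacagagGTTTGTTTTGGGCTA
N4BP2L2 intron 2, downstream end, chr13:32522256-32522285: TATATTTTATTTCAGcaaaacaagctatcg
TNPO1 intron 1, exon-exon, around chr5:72816753-72848384, plus strand: atggtgtgggaccggCAAACCAAGATGGAG
UPF1 intron 1, exon-exon, around chr19:18832441-18845979, plus strand: cagctcgacgcgcagGTTGGGCCCGAAGGC
GALNT10 intron 7, upstream end, chr5:154386416-154386445, plus strand: gaaatctccttcaagGTGAGCCAGCTCTCC
Among the introns named in this report, the annotation held the upstream end of 13 and the downstream end of 14. All 13 began with GT and all 14 closed with AG. The intron ends printed for FNBP4, DNAJB6, N4BP2L2 and GALNT10 were read from other annotated transcripts that carry them as exon, so exon-intron reads there can come from those transcripts.

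Long introns were almost fully removed in control cells. Percent retention is the authors' vast-tools value, the mean of the reads over both exon-intron junctions divided by that mean plus the exon-exon reads. Averaged over the 4 control libraries it had a median of 0.63% across the 14547 introns, with quartiles at 0.23% and 1.57% and a 95th percentile of 8.70%. It was 0 in all 4 control libraries for 1578 introns (10.8%), above 0 and up to 1% for 7617 (52.4%), above 1 and up to 5% for 4191, above 5 and up to 10% for 507, above 10 and up to 50% for 325, and above 50% for 329. Lengths ran to 654926 bases with a median of 10023. By position 13009 introns lay between coding exons, 1203 in 5′ UTRs, 78 in 3′ UTRs and 257 in noncoding transcripts. The median intron had 72.3 exon-exon reads in a control library, at which 1 exon-intron read moves its percent by a visible step, so single low percents are coarse.

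Most introns with the highest percents had no exon-exon read in the controls. Of the 329 introns above 50%, 219 had no exon-exon read in any control library and stood at 100% in all 4, and 138 of the 219 had exon-intron reads at 1 end only. Another annotated exon runs over an end of 172 of the 329. Noncoding genes held 246 of the 14547 introns, with a median of 100%, against 0.61% in protein-coding genes. Among introns with at least 20 exon-exon reads over the 4 controls and balanced exon-intron ends in each, the highest were in protein-coding genes and were chosen after their values were seen. ECHDC2 intron 1, in a gene named for an enoyl-CoA hydratase domain, had 31.58% to 60% in the 4 controls (mean 46.3% ± 11.9, SD, n = 4). CSRNP2 intron 1 had 41.77% to 48.51% (mean 45.3% ± 2.78). Next came introns of MICAL2, MED15, SLC25A36 and ZNF346 (means 38.3%, 31.1%, 27.2% and 25.8%), each with an annotated exon over an end. ZNF142 intron 4, the seventh, in a zinc-finger gene, had 12.5% to 35.85% (mean 25.3% ± 9.63) and no annotated exon over either end, unlike ECHDC2 and CSRNP2, where exons run over both.

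The shortest that qualified were in SIN3B, a corepressor scaffold, LRSAM1, a ubiquitin ligase, and NDUFAF1, a complex I assembly factor, at 5001, 5002 and 5003 bases, with control means of 1.65%, 1.58% and 2.23%. Just outside were introns of ZZEF1 and EZR (ezrin, which links membrane to actin) at 5000 bases and of PHF21A at 4999, with 0.91%, 1.01% and 1.12%. The 3 longest were in FAM155A (654926 bases), IMMP2L (523672 bases, a mitochondrial inner-membrane peptidase subunit) and MAGI1 (415907 bases, a junctional scaffold). FAM155A had 3, 3, 4 and 2 upstream exon-intron reads in the 4 controls and 1, 0, 0 and 0 downstream reads. MAGI1 had 3, 6, 9 and 0 upstream reads and none downstream. In all 3 of these introns nearly all exon-intron reads lay at the upstream end.

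The longer the intron class, the more of its introns had more upstream than downstream exon-intron reads. For this the introns with 20 reads in all 34 libraries and no annotated exon over an end were used, and for each library the share with more upstream than downstream reads was taken among those with unequal reads. In introns of up to 200 bases the share was 38.6% ± 0.277 in the controls (SD, n = 4), 44.9% ± 0.496 in those over 200 and up to 1000 bases, and 52.0% ± 0.352 in those over 1000 and up to 5000 bases. Long introns went on from there, with 61.1% ± 1.33 up to 10000 bases (n = 3459 introns), 69.4% ± 2.24 up to 20000, 80.6% ± 1.63 up to 50000 and 87.9% ± 1.88 over 50000 bases (n = 503 introns). The ranges of the 4 controls did not overlap between neighbouring classes. This is a share of introns and not of reads. Over long introns with 20 reads in each control and no exon over an end, mean reads per control library were 2.29 upstream and 1.47 downstream at up to 10000 bases, and 2.78 upstream and 3.13 downstream over 50000 bases. The medians were 0.5 and 0.25 at up to 10000 bases, and 1 and 0 over 50000 bases, so the mean reads did not follow the order that the introns did.

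The longest class was above the shortest in edited cells as well. Over all 34 libraries the share ran from 36.4% to 40.5% at up to 200 bases, from 55.7% to 63.1% in long introns of up to 10000 and from 79.5% to 91.1% over 50000 bases. Introns other than the first of their transcript gave 38.4% at up to 200 bases and 87.1% over 50000 in the controls, and first introns gave 45.5% and 88.6%. First introns over 200 and up to 1000 bases had 39.1%, below those of up to 200 bases, so the order did not hold between their 2 shortest classes. In first introns over 5000 and up to 10000 bases the lowest library was FNBP4 deletion hgRNA 3 replicate 1 at 44.2%, against 60.5% to 70.2% in controls. Percent retention did not follow length in this way. The control median with no exon over an end was 0.515% in long introns of up to 10000 bases, 0.51% and 0.533% in the next 2 classes, and 0.751% over 50000 bases.

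**Figure D1:**
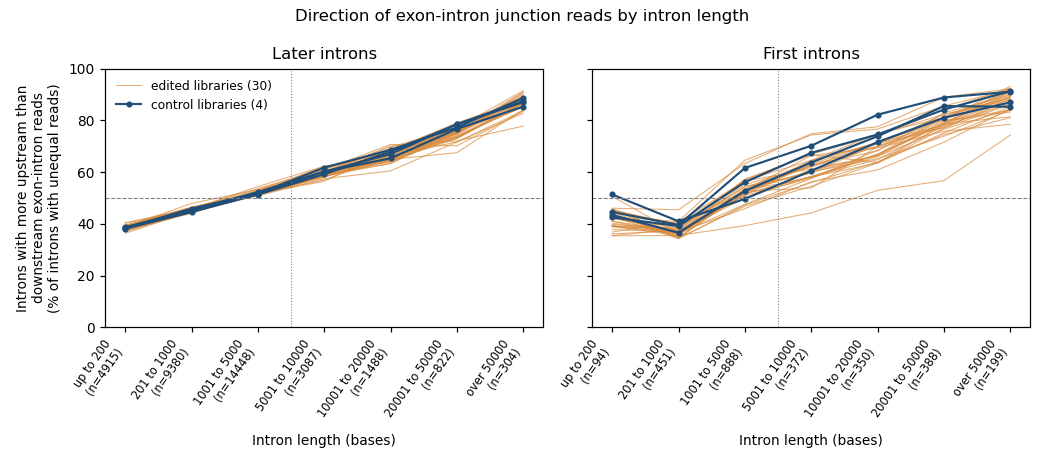
Share of introns with more upstream than downstream exon-intron reads (y, % of introns with unequal reads) by intron length class (x, bases; n introns under each class) in 30 edited libraries (orange lines) and 4 control libraries (blue lines), for later introns (left) and first introns (right). The dotted line marks 5000 bases; in later introns the control mean climbs to 87.1% in the longest class.

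The assignment of the first count in the table to the upstream end is not stated in the file and follows the usual order of vast-tools, which was checked on the data. Where an annotated exon runs over the upstream end only, the first count was higher in 1062 introns and the second in 346. Where one runs over the downstream end only, the first count was higher in 585 introns and the second in 496. With no exon over either end these numbers were 6088 and 2747. The read sums for the downstream end only were 18242 for the first count and 41471 for the second. There the second count was thus higher by read sums and not by number of introns.

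The median percent of long introns was higher in the DDX5 deletion than in controls, and that of shorter introns was too. The median over long introns with 20 reads in the library was 0.87%, 0.74%, 0.93% and 0.95% in the 4 DDX5 deletion libraries and 0.54%, 0.48%, 0.47% and 0.45% in the 4 controls. The groups did not overlap, with means of 0.872% ± 0.095 and 0.485% ± 0.039 (SD, n = 4 each). With reads summed over long introns they did overlap, at 2.65%, 2.44%, 2.90% and 2.81% against 2.22%, 2.54%, 2.28% and 2.17% in controls. Introns of up to 5000 bases had 0.865% ± 0.093 in the DDX5 deletion and 0.58% ± 0.044 in controls. Percents of introns with 0 reads at their ends, which were 24.1% ± 1.72 of long introns in the DDX5 deletion and 33.8% ± 1.77 in controls, make the median a coarse value. Because the libraries are bulk RNA, less splicing in every cell and the unspliced form of some cells cannot be told apart. They hold total RNA after ribosomal depletion, so reads of transcripts not yet spliced and reads of retained introns cannot be told apart either.

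The other deletions lay around the controls, and the knockouts split by replicate. The median was 0.452% ± 0.13 in the DDX17 deletion, 0.475% ± 0.076 in the FNBP4 intron deletion, 0.395% ± 0.173 in the FNBP4 PTC exon deletion, 0.351% ± 0.133 in the HDAC7 deletion (n = 4 each) and 0.45% ± 0.028 in the HNRNPD deletion (n = 2). Replicate 1 of each of the 4 knockouts had a median of 0.00%, and replicate 2 had 0.34% (DDX5), 0.71% (DDX17), 0.35% (FNBP4) and 0.39% (labelled HDAC7). Shorter introns showed the same split, with 0.00% in replicate 1 and 0.49% to 0.78% in replicate 2. These 4 libraries stand apart from the rest, and each knockout intron named below is also given without replicate 1. The replicate difference of each knockout, taken per intron as a log2 ratio, was correlated with that of the other 3 (0.204 to 0.295 over 6 pairs of knockouts), and not with that of the controls (-0.0844 to 0.0521 over 8 pairs). DDX17 deletion hgRNA 1 replicate 2 (0.27%), HDAC7 deletion hgRNA 1 replicate 2 (0.18%) and FNBP4 deletion hgRNA 3 replicate 1 (0.20%) also had low medians. With reads summed over long introns they were at 3.23%, 2.96% and 2.23%. The controls had 2.17% to 2.54% by that measure, and replicate 1 of the knockouts 1.38% to 1.67%. These DDX17 and HDAC7 deletion libraries thus lay above the controls by summed reads.

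**Figure D2:**
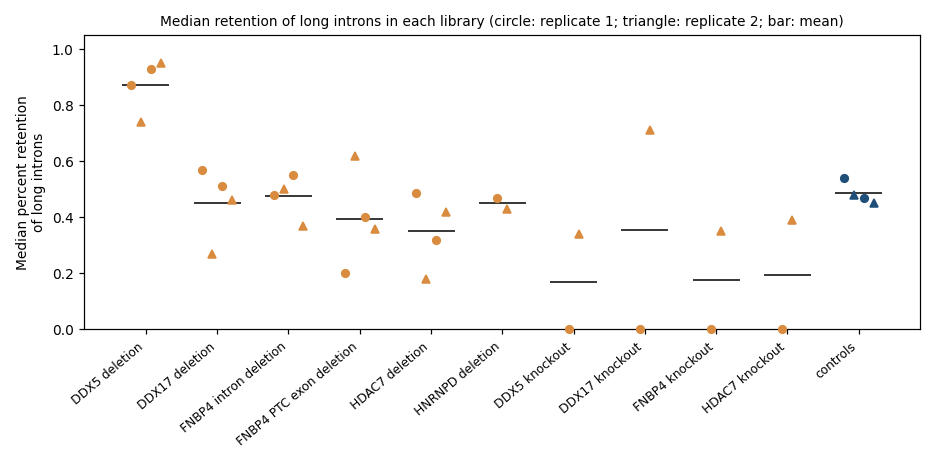
Median percent retention of long introns (y) in each library of the edited sets and, at the right, the controls (x); circles are replicate 1, triangles replicate 2 and bars the set mean. The 4 DDX5 deletion libraries lie between 0.74% and 0.95%, above the 4 controls at 0.45% to 0.54%, and replicate 1 of each knockout is at 0.00%.

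In the DDX5 deletion 40 long introns in 39 genes were more retained and none less retained. They are the introns past an adjusted p of 0.05 in limma (Benjamini-Hochberg over all events of the comparison) whose 4 edited libraries all lay beyond the 4 controls. The 40 are 0.299% of 13374 long introns tested, against 0.384% of shorter introns by the same rule. The share in long introns was therefore near the background of shorter introns. None of the 13374 (0%) was less retained by this rule, against 0.0186% of shorter introns. On adjusted p alone limma called 62 long introns more and 2 less retained, 0.479% of those tested, against 0.565% of shorter introns and 1.07% of all splicing events. The other 24 of these calls had percents that overlapped the controls. The test works on log2((inclusion reads + 1)/(exclusion reads + 1)), called the log2 ratio here, and where inclusion reads are near 0 this value follows the read total of the host gene.

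Changes in the 40 introns were small in percent and rested on few reads. They ranged from 0.233 to 35.7 percentage points with a median of 4.45, and 24 of the 40 had a control mean under 1%. The log2 ratio rose by 1.48 to 2.87. Mean exon-exon reads were lower in the DDX5 deletion at 37 of the 40, downstream exon-intron reads were higher at 38 and upstream reads at 28. The call in part fixes these directions, since both kinds of read enter the tested ratio. Of the 40, 30 lay between coding exons and 10 in 5′ UTRs, 8 had an annotated exon over an end, and lengths ran from 5157 to 135957 bases with a median of 10434. The count depended on single libraries: limma called 6 long introns in place of 64 when control hgRNA 1 replicate 2 was left out, 10 when control hgRNA 2 replicate 1 was left out, and 15 to 29 when any 1 DDX5 deletion library was left out. Of these 6 and 10, all libraries lay beyond the controls in 4 and 8.

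The largest rises were in 8 introns. TNPO1 intron 1, in the gene of transportin-1, an import receptor for RNA-binding proteins, had 20.48%, 22.86%, 23.46% and 26.67% in the 4 DDX5 deletion libraries and 7.27%, 6.21%, 6.67% and 9.09% in the controls. Its exon-exon reads were 33, 27, 31 and 33 against 51, 68, 56 and 50, and its downstream exon-intron reads were 17, 16, 18 and 24 against 7, 8, 8 and 10. Both of these kinds of read moved, and neither overlapped the controls. Upstream exon-intron reads did not rise, at a mean of 0.25 per library against 0.5 in controls. On upstream reads alone the limma adjusted p was 0.779. With both ends the log2 ratio rose by 1.79 ± 0.46 (SE, limma adjusted p 0.0475). TNPO1 had log2 fold changes of 0.55 and 0.46 in the authors' deposited table for hgRNAs 1 and 2 (false discovery rates 0.0342 and 0.131).

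UPF1 intron 1, in the gene of the RNA helicase central to nonsense-mediated decay, had 28.89%, 16.28%, 15.62% and 8.91% in the DDX5 deletion and 4.35%, 1.49%, 4.05% and 6.38% in controls. Downstream reads were 13, 7, 9 and 9 against 3 in each control. All 4 edited libraries were above all 4 controls. Upstream reads of UPF1 did not rise, at a mean of 0.25 against 1.25 in controls. On upstream reads alone the limma adjusted p was 0.868. With both ends its log2 ratio rose by 2.02 ± 0.49 (limma adjusted p 0.0357). The authors' deposited table gave UPF1 log2 fold changes of -0.03 and 0.08. DOK4 intron 1, in a docking protein of receptor tyrosine kinases, had 60%, 57.58%, 80% and 43.59% in the DDX5 deletion and 32.53%, 11.67%, 25.3% and 28.81% in controls. Here the exon-exon reads fell to 6, 7, 3 and 11, against 28, 53, 31 and 21, while downstream reads were 18, 19, 24 and 17 against 26, 13, 19 and 17 (log2 ratio 2.23 ± 0.54, limma adjusted p 0.0343). The percent of DOK4 thus moved with the spliced reads, and an annotated exon runs over its downstream end. DOK4 was lower in the authors' deposited table under both hgRNAs (log2 fold changes -0.59 and -0.61, false discovery rates 0.0287 and 0.0299).

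AHRR intron 3, in the repressor of the aryl hydrocarbon receptor, had 19.05%, 27.27%, 19.44% and 53.33% in the DDX5 deletion and 9.8%, 7.27%, 5.56% and 2.44% in controls (log2 ratio 2.15 ± 0.52, limma adjusted p 0.0381). TMEM44 intron 5 had 72%, 79.17%, 71.79% and 79.59% against 58.49%, 39.53%, 31.25% and 42.31% (1.97 ± 0.43, limma adjusted p 0.0194), and annotated exons run over both of its ends. In both genes every edited library was above every control, again by the rule that chose them. GALNT10 intron 7, in a glycosyltransferase that starts mucin-type O-glycosylation, had the most reads of the 8, and annotated exons run over both of its ends. Its upstream exon-intron reads, those over the GTGAGC end printed above, were 57, 61, 61 and 46 in the DDX5 deletion and 30, 39, 29 and 28 in controls. Its exon-exon reads were 224, 173, 250 and 217 against 358, 360, 386 and 399. The percent was 14.01%, 16.83%, 13.34% and 11.61% in the DDX5 deletion and 4.79%, 6.61%, 4.46% and 3.86% in controls (log2 ratio 1.62 ± 0.33, limma adjusted p 0.00836).

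ARAP1 intron 3, in a GTPase-activating protein, and MACROD1 intron 3, in an ADP-ribose hydrolase, complete the 8. ARAP1 had 5.88%, 5.88%, 13.51% and 19.3% in the DDX5 deletion and 0.92%, 0.81%, 2.61% and 3.61% in controls. MACROD1, at 135957 bases the longest of the 40, had 12.34%, 10.97%, 5.64% and 11.92% against 0%, 0.99%, 3.72% and 1.58%, with every exon-intron read at the upstream end. In the DDX5 knockout, which was compared with the same controls, the percents of the 2 replicates were 16.67% and 15.38% for TNPO1, 11.76% and 1.92% for UPF1, 46.34% and 52.17% for DOK4, and 6.29% and 9.71% for GALNT10. Over the alternative settings and left-out libraries TNPO1 passed in 6 of 25 (limma adjusted p up to 0.779), UPF1 in 10 of 25, DOK4 in 9 of 24, AHRR in 9 of 26, ARAP1 in 12 of 26, MACROD1 in 13 of 26, TMEM44 in 14 of 24 and GALNT10 in 21 of 26. None of the 40 was called in the knockout, where no long intron was called more retained. In it TNPO1 and DOK4 were above every control in both replicates, and UPF1 and GALNT10 overlapped the controls.

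**Figure D3:**
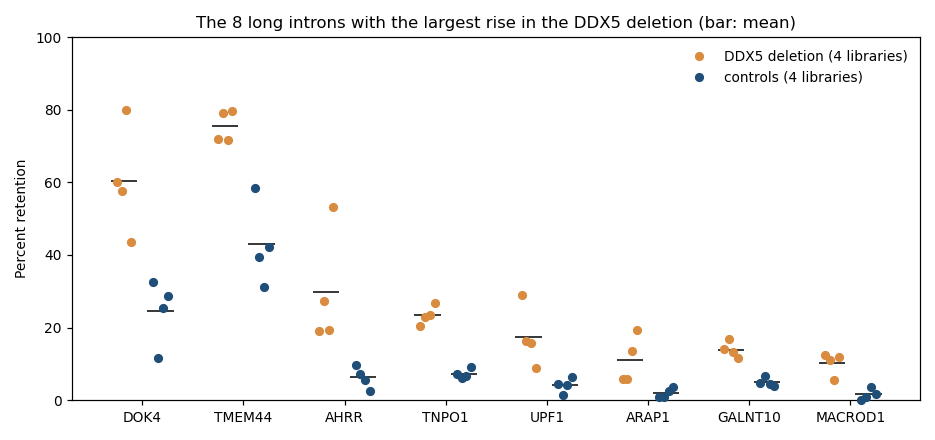
Percent retention (y) of the 8 long introns with the largest rise (x) in the 4 DDX5 deletion libraries (orange, left) and the 4 controls (blue, right); points are libraries and bars are means. For each intron the lowest DDX5 deletion library is above the highest control, which the rule that chose them requires, with the closest pair in ARAP1, MACROD1 and UPF1.

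First introns made up 18 of the 40, and the spliced reads of first introns were low in the same libraries. Of 2348 first long introns tested 18 were called more retained with all libraries beyond the controls (0.767%), against 22 of 11026 later ones (0.2%). The first-junction shift is the median, over genes, of the log2 exon-exon reads of the first long intron relative to later introns of the same gene, set against the control mean (n = 2446 introns). It was -0.348, -0.391, -0.341 and -0.309 in the 4 DDX5 deletion libraries and -0.139, 0.345, 0.0411 and -0.225 in the 4 controls. All 4 edited values lay below the controls, whose own range was wider than the difference of means. In the 17 called first introns with a value the DDX5 deletion shift had a median of -1.48, from -2.05 to -0.11, a value that the call in part fixes, since exon-exon reads are also the denominator of the tested ratio. Second long introns were at -0.00205, but they belong to the later introns used as the reference, which holds their value near 0. First introns of up to 5000 bases were at -0.256. Shifts of this size were also present in sets with few or no calls: -0.438 in the FNBP4 PTC exon deletion, -0.407 in the libraries labelled HDAC7 knockout (-0.289 in replicate 1 and -0.525 in replicate 2) and -0.245 in the FNBP4 intron deletion.

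In most sets the shift was ordered by the GC content of the first exon. Over the last 100 bases of exon 1 first long introns were split by GC into 3 groups. The group with the lowest GC (median 59%, n = 901) had a shift of -0.146 in the DDX5 deletion, the middle group (68%, n = 765) -0.358 and the highest group (76%, n = 763) -0.661. The same order was present in the FNBP4 PTC exon deletion (-0.256, -0.46 and -0.759) and the labelled HDAC7 knockout (-0.202, -0.433 and -0.72). It was also present in the DDX5 knockout (-0.0983, -0.261 and -0.49) and the FNBP4 knockout (-0.119, -0.287 and -0.48). Among sets with no calls, the FNBP4 intron deletion (-0.0975, -0.251 and -0.457) and the DDX17 deletion (-0.06, -0.166 and -0.287) had it too. The HNRNPD deletion ran the other way (0.221, 0.286 and 0.349). The HDAC7 deletion showed no such order (0.0587, 0.0703 and 0.0499) and the DDX17 knockout differed little between groups (-0.0026, -0.0619 and -0.0691). Exon 1 had a median GC of 75% in the 17 called first introns against 67% in all 2429 with a value. The part of exon 1 GC and of the first-junction shift in the higher percents was not tested. Later introns made up 32 of the 64 calls on adjusted p.

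**Figure D4:**
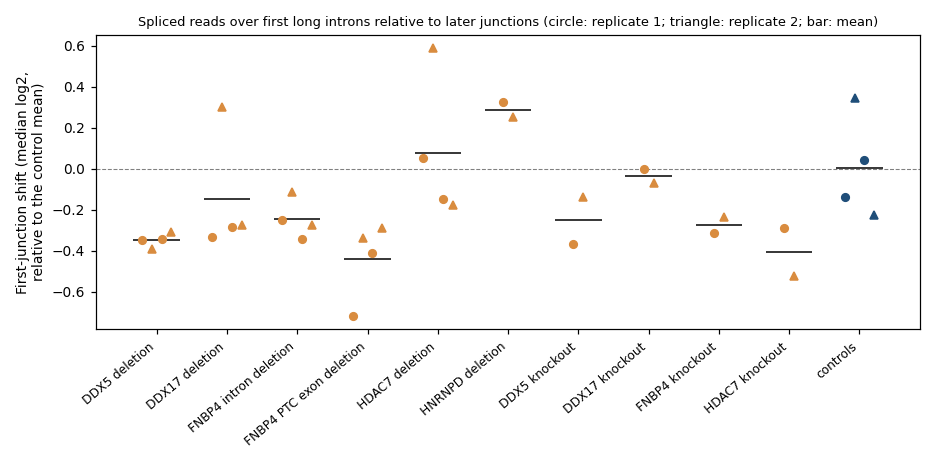
First-junction shift (y, median log2 of exon-exon reads over first long introns relative to later introns of the same gene, set against the control mean) in each library of the edited sets and, at the right, the controls (x); circles are replicate 1, triangles replicate 2 and bars the set mean. The 4 DDX5 deletion libraries lie between -0.391 and -0.309 and the controls between -0.225 and 0.345.

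The remaining 32 introns of the 40 were spread over many functions. Of 389 tested long introns in matrix and adhesion genes 5 were called more retained in the DDX5 deletion and none less, in COL4A2 (a basement-membrane collagen), ITGB1 (integrin beta-1), LOXL2 (a collagen-crosslinking oxidase), PTK2 (focal adhesion kinase) and TNS3 (tensin 3). Over all long introns tested the share was 0.299%, and no list was tested against it. The median log2 ratio change over these 389 was 0.39, against 0.25 over all long introns tested. COL4A2 intron 20 averaged 1.44% in the DDX5 deletion and 0.06% in controls (log2 ratio 2.80 ± 0.50, limma adjusted p 0.0026). ITGB1 intron 10 averaged 0.255% and 0.0225%, on 1956 and 1808 exon-exon reads per library, so the spliced reads did not move with the percent there. LOXL2 intron 6 was similar, with 0.305% and 0.0525% on 4870 and 4795 exon-exon reads.

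RNA-binding and splicing genes had 2 calls of 275 tested, UPF1 and SYNCRIP (hnRNP Q), and a median change of 0.27. SYNCRIP intron 6 averaged 1.37% in the DDX5 deletion and 0.155% in controls, with 8.75 and 1.25 upstream reads (limma adjusted p 0.00994). Growth factor and kinase genes had 2 of 633, the receptor tyrosine kinase AXL and the STE20-family kinase STK24. Chromatin and transcription genes had 1 of 703 (RUNX2, a runt-domain factor), ubiquitin and autophagy genes 1 of 590 (the ubiquitin ligase MIB1), and neither cytoskeletal genes (634 tested) nor DNA repair and replication genes (267 tested) had any. Of the 39 host genes, 13 were lower and 1 higher in the authors' deposited table under DDX5 deletion hgRNA 1, and 10 lower and 0 higher under hgRNA 2. Over all 22691 genes with a value in the authors' deposited table, lower ones made up 5.13% and higher ones 3.13% under hgRNA 1, and 3.30% and 2.18% under hgRNA 2. The authors' deposited table gave these hosts median log2 fold changes of -0.18 and -0.17, against -0.02 for all genes under either hgRNA. The call can favour hosts with fewer reads, since exon-exon reads are the denominator of the tested ratio.

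A long intron of FNBP4 itself was less retained in the FNBP4 PTC exon deletion. Limma called 9 long introns more and 10 less retained, 0.149% of 12770 tested, against 0.151% of shorter introns and 0.858% of all events. With every library beyond the controls 4 were more and 3 less retained (0.0313% and 0.0235%), against 0.0144% and 0.027% of shorter introns. FNBP4 intron 12 had 3.76%, 2.29%, 1.73% and 0.98% in the 4 edited libraries and 16.09%, 14.63%, 10.23% and 14.23% in the controls. Its exon-exon reads were 263, 250, 193 and 197 against 61, 23, 52 and 59. Upstream exon-intron reads were 15, 9, 7 and 4 against 21, 4, 5 and 15, so the lower percent came with more spliced reads and with exon-intron reads that overlapped the controls. The log2 ratio fell by 2.81 (SE 0.47, limma adjusted p 0.00213). Annotated transcripts carry exon over both ends of this intron.

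The guide sites of this deletion that could be matched to annotated transcripts do not lie in intron 12, and the Cas12a site of hgRNA 4 was not matched. Those matched sit at chr11:47731955-47732387, in the 975-base intron upstream of it (chr11:47731562-47732536), beyond a 188-base exon and 581 bases from the long intron. This neighbour intron had 3.36%, 7.45%, 7.09% and 3.97% in the PTC exon deletion libraries and 22.22% to 36.11% in the controls. It was as low in other libraries, at 2.27%, 6.12%, 1.49% and 1.82% in replicate 1 of the DDX5, DDX17, FNBP4 and labelled HDAC7 knockouts and 8.7% in FNBP4 knockout replicate 2. FNBP4 stood at 35.2 and 27.2 RPKM under hgRNAs 3 and 4 in the authors' deposited table, against 14.3 RPKM in controls (log2 fold changes 1.61 and 1.27, false discovery rates 1.09e-07 and 8.32e-05). The other 2 long introns of FNBP4 also had more exon-exon reads there. Intron 8 had 0.40% to 1.41% against 1.3% to 2.13% in controls, and intron 2 had 0.90% to 1.79% against 0% to 2.22%, and neither passed the test. Under the FNBP4 intron deletion the Cas12a site of hgRNA 1 and the Cas9 site of hgRNA 2 were matched in the same neighbour intron. Their partner sites were not matched. In the FNBP4 intron deletion intron 12 averaged 12.9% ± 5.97 against 13.8% ± 2.51 in controls (n = 4 each). Intron 8 had 8.44%, 7.76%, 3.86% and 6.45% there, above the 1.3% to 2.13% of controls in every library, with a log2 ratio change of 1.36 ± 0.51 that did not pass (limma adjusted p 0.584).

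DNAJB6 intron 8 moved by less and with many reads. This co-chaperone of HSP70 is made as isoforms with different last exons, and an annotated exon runs over the upstream end of the intron, so its upstream reads include those of a shorter transcript. DNAJB6 had 39.28%, 34.31%, 35.02% and 37.9% in the FNBP4 PTC exon deletion and 43.43%, 41.16%, 50.5% and 45.45% in controls. In the FNBP4 knockout it had 57.83% and 62.65%, above all 4 controls. The log2 ratio fell by 0.51 (SE 0.11, limma adjusted p 0.0142) in the deletion and was 0.88 ± 0.13 higher in the knockout (limma adjusted p 0.00129). Both FNBP4 edits therefore lay beyond the controls, on opposite sides of them. Downstream reads were 2, 2, 0 and 2 in the deletion, 0 and 2 in the knockout and 0 to 1 in controls, so the percent rests on the upstream end alone. Without replicate 1 of the knockout the difference was 1.03 and limma adjusted p 0.0033, and without replicate 2 it was 0.74 and 0.0231, within a range of 0.0006 to 0.828 over 22 alternatives.

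MEF2A intron 4, in a MADS-box transcription factor, had 2.01%, 0%, 1.64% and 2.65% in the FNBP4 PTC exon deletion and 4.81%, 9.99%, 10.1% and 10.26% in controls (log2 ratio -2.07, SE 0.48, limma adjusted p 0.0373). Its upstream and downstream reads averaged 0.75 and 1 against 2 and 2.25, and its exon-exon reads 55 against 22.25. Annotated exons run over both of its ends. HIST1H2BC, a replication-dependent histone gene whose usual mRNA has no intron, had 97.66%, 93.75%, 92.05% and 92.09% against 84.07%, 88.68%, 77.84% and 77.24% (1.81 ± 0.41, limma adjusted p 0.0251). It had 2 downstream reads in the controls and 0 in the deletion, and an annotated exon runs over the upstream end that carries its value. NDRG4 intron 2 averaged 3.44% in the deletion and 0.638% in controls, ARPC1A intron 1, in an Arp2/3 complex subunit, 2.53% and 0.57%, and MEX3D intron 1, in a KH-domain RNA-binding protein, 4.13% and 0.863%. These rested on few reads. Mean upstream reads were 1.25, 0.5 and 0 against 0.5, 0.25 and 1.25, and downstream reads 2, 1.25 and 4.25 against 0.75, 0.75 and 0.5. Exon-exon reads averaged 43, 33 and 49.75 against 94.25, 94.25 and 114.25. MEX3D was also among the 40 of the DDX5 deletion, at 1.64%, 3.37%, 10.14% and 4.26%. These 2 comparisons share their controls. Over the alternatives FNBP4 intron 12 passed in 22 of 25, DNAJB6 in 15 of 26, HIST1H2BC and MEX3D in 9 of 25, NDRG4 in 8 of 25, MEF2A in 7 of 26 and ARPC1A in 4 of 24, and ARPC1A had a limma adjusted p of 0.0538 with the replicate block. Limma called 148 long introns in place of 19 when FNBP4 deletion hgRNA 3 replicate 2 was left out, 30 when control hgRNA 1 replicate 1 was, and 2 to 11 when any other 1 of the 8 libraries was.

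**Figure D5:**
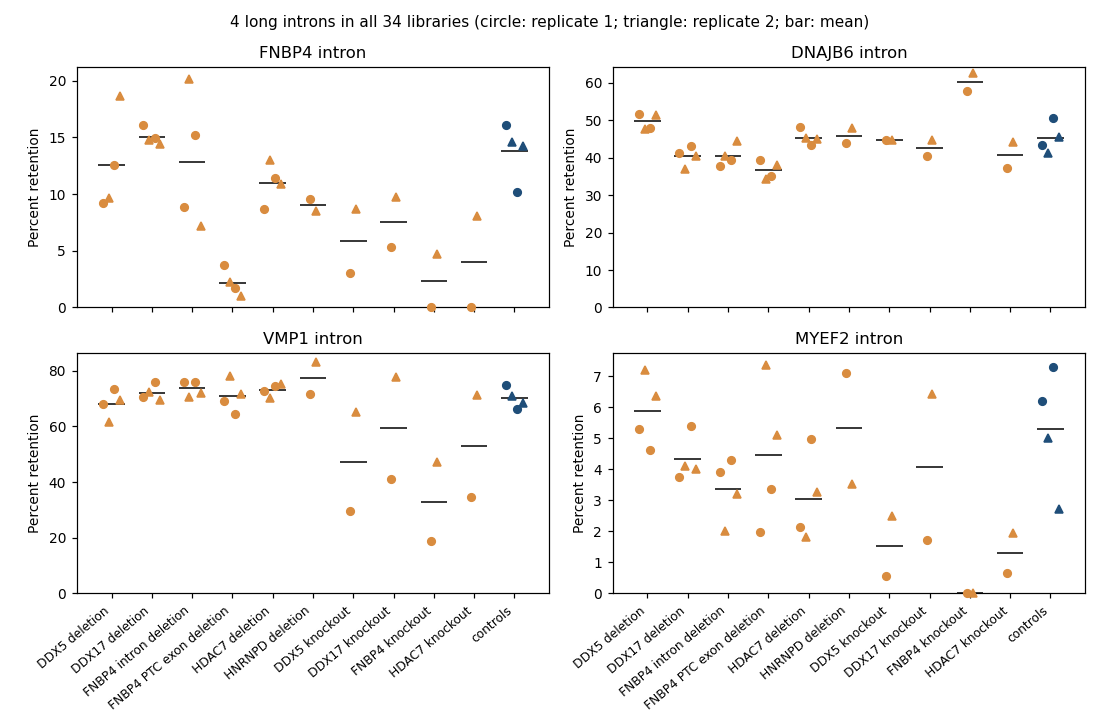
Percent retention (y) of 4 long introns in each library of the edited sets and, at the right, the controls (x); circles are replicate 1, triangles replicate 2 and bars the set mean. FNBP4 intron 12 is at 0.98% to 3.76% in the FNBP4 PTC exon deletion, and VMP1 and MYEF2 are lowest in the FNBP4 knockout.

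The FNBP4 knockout had 1 long intron more and 3 less retained, all beyond the controls, which is 0.0308% of 12972 tested against 0.0816% of shorter introns. By direction these were 0.00771% more and 0.0231% less retained, against 0.00709% and 0.0638% of shorter introns with all libraries beyond the controls. Without replicate 2 limma called 47 long introns in place of 4, without control hgRNA 2 replicate 1 it called 1, and without any other library 2. VMP1 encodes an endoplasmic-reticulum protein needed for autophagosome formation, and the microRNA gene MIR21 lies in its 3′ part. VMP1 intron 10 had 18.81% and 47.1% in the knockout and 74.69%, 70.85%, 66.32% and 68.34% in controls. Its downstream exon-intron reads were 38 and 146 against 654, 491, 449 and 531, and its exon-exon reads were 82 and 82 against 111, 101, 114 and 123. Its upstream reads were 0 or 1 in these 6 libraries, and an annotated exon runs over the downstream end. The log2 ratio fell by 2.34 (SE 0.52, limma adjusted p 0.0395). VMP1 was lower in the authors' deposited table in this knockout (log2 fold change -1.03, false discovery rate 0.000306).

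VMP1 was low in replicate 1 of every knockout. It had 29.45% in DDX5, 40.94% in DDX17 and 34.66% in the library labelled HDAC7, while replicate 2 of these had 65.07%, 77.75% and 71.12%. Without FNBP4 knockout replicate 1 the change in VMP1 was -1.39 with a limma adjusted p of 0.771, within a range of 0.0071 to 0.903 over 22 alternatives. Without replicate 2 it was -3.29 with a limma adjusted p of 0.0071. SDHA, the flavoprotein subunit of succinate dehydrogenase, behaved alike at intron 11, with 0.44% and 2.07% in the FNBP4 knockout and 6.87%, 6.31%, 4.8% and 7% in controls (limma adjusted p 0.0305, 0.638 without replicate 1, range 0.0064 to 0.638). Replicate 1 of the other knockouts had 1.45% to 2%, and replicate 2 had 4.99% to 6.11%. SDHA has near-identical pseudogene copies, and its values are uncertain for that reason. MYEF2 intron 5, in a gene whose mouse form represses myelin gene transcription, had no exon-intron read in either FNBP4 knockout library, on 129 and 182 exon-exon reads, against 6.21%, 5.02%, 7.28% and 2.72% in controls. MYEF2 gave a limma adjusted p of 0.0144, and 0.0556 and 0.0564 without replicate 1 and 2, within a range of 0.0042 to 0.341 over 22 alternatives. Other knockouts had 0.55% to 6.43% at this intron.

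In the DDX5 knockout limma called 1 long intron less retained and none more. This is 0.00754% of 13263 tested, against 0.0225% of shorter introns (0.00173% less retained and beyond the controls). Without any 1 control library limma called none, without replicate 1 it called 1 and without replicate 2 it called 4. The intron was N4BP2L2 intron 2, with 2.56% and 7.69% in the knockout and 26.63%, 18.31%, 23.94% and 26.95% in controls. Upstream reads were 2 and 8 against 20, 13, 21 and 29, and downstream reads 2 and 3 against 25, 13, 13 and 16, so both ends were lower than in every control. Annotated exons run over both ends of this intron. The log2 ratio fell by 2.40 (SE 0.52, limma adjusted p 0.0484). Without replicate 1 the change was -1.74 and the limma adjusted p 0.534, within a range of 0.03 to 0.534 over 22 alternatives. N4BP2L2 was also low in replicate 1 of the DDX17 and FNBP4 knockouts (7.41% and 4.65%), and replicate 2 of these had 19.02% and 22.01%.

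In the libraries labelled HDAC7 knockout limma called 6 long introns more and 2 less retained, 0.063% of 12691 tested against 0.0715% of shorter introns, and 2 and 1 of these lay beyond the controls (0.0158% and 0.00788%, against 0.0214% and 0.0107% of shorter introns). LONP2 intron 1, in a peroxisomal protease, had 6.9% and 7.69% against 1.75%, 0%, 0% and 0% in controls, with exon-exon reads of 27 and 18 against 56, 101, 91 and 42. FHOD3 intron 19, in a formin of striated muscle, had 5.72% and 1.89% against 0%, 0%, 0.71% and 0%. Intron 2 of the noncoding gene RP11-428O18.6 had 93.32% and 95.69% against 100% in all controls. Without replicate 1 the limma adjusted p was 0.0769 for LONP2, 0.323 for FHOD3 and 0.249 for RP11-428O18.6, and over all alternatives it ran from 0.0018 to 0.341, from 0.0046 to 0.4 and from 0.003 to 0.751. Limma called 13 long introns in place of 8 without either labelled replicate, 2 when control hgRNA 1 lost replicate 2, and 1 when control hgRNA 2 lost replicate 1.

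Few or no long introns were called elsewhere. In the DDX17 deletion, the FNBP4 intron deletion, the HDAC7 deletion and the DDX17 knockout limma called 0 of 10939, 13601, 12100 and 13579 tested (0% each, against 0.0159%, 0.01%, 0.00921% and 0.0154% of shorter introns). Unadjusted p-values under 0.05 numbered 552, 553, 528 and 559 in these comparisons, and a limma fit to the arcsine square root of the inclusion share called 2, 4, 1 and 4. The HNRNPD deletion had 2 calls (0.0146% of 13732, against 0.00334% of shorter introns) with 790 unadjusted, neither of them beyond the controls, and 0 without any 1 control library. Without DDX17 deletion hgRNA 1 replicate 1 the DDX17 deletion gave 87 calls, without HDAC7 deletion hgRNA 1 replicate 1 the HDAC7 deletion gave 7, and the DDX17 knockout gave 2 without replicate 1 and 3 without replicate 2. In both deletions the remaining hgRNA 1 library was the replicate 2 with a low median.

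Long introns of the other edited genes did not pass the test in their own deletion. HDAC7 intron 1, of 17492 bases, had 7.72%, 11.82%, 8.52% and 6.94% in the HDAC7 deletion and 3.64%, 5.94%, 1.24% and 2.52% in controls. Every edited library was above every control, and the log2 ratio change of 1.38 ± 0.63 had a limma adjusted p of 0.654. HNRNPD intron 2 had 1.6% and 0.94% in its deletion and 1.22% to 1.52% in controls. DDX5 and DDX17 had no long intron with enough reads.

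Known detained-intron hosts held 27 of the long introns, in 14 genes, with a median control percent of 1.78% against 0.63% over all long introns. CCNL1 (cyclin L1) intron 3 was the highest, with 50.44%, 52.21%, 50% and 55.56% in the DDX5 deletion and 36.99%, 44.19%, 37.04% and 26.44% in controls. The groups did not overlap, and the log2 ratio change of 0.91 ± 0.42 did not pass (limma adjusted p 0.373). TRA2A (transformer-2 alpha) intron 1 averaged 20.0% ± 6.70 and 10.3% ± 1.48, RBM39 intron 3 9.42% ± 1.92 and 8.08% ± 4.16, and LUC7L intron 4 24.9% ± 7.22 and 17.6% ± 1.80 (n = 4 each). Annotated exons run over both ends of the CCNL1 and LUC7L introns and over the downstream end of those of TRA2A and RBM39. No one of the 25 tested in the DDX5 deletion was called in either direction, and their median log2 ratio change was 0.36 against 0.25 over all long introns. In the FNBP4 PTC exon deletion 1 of 26 was called, FNBP4 intron 12.

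Of 39 genes known to act on long introns or on early termination within them, 1 was higher and 1 lower under DDX5 deletion hgRNA 1 in the authors' deposited table, near the shares over all genes given above. TARDBP (TDP-43) was higher and SNRPA (a protein of the U1 snRNP) lower under DDX5 deletion hgRNA 1, and SNRPA alone lower under hgRNA 2. The share over all genes was 5.95% higher and 8.45% lower under FNBP4 deletion hgRNA 3. There TOP1, HNRNPC, CPSF2 and NUDT21 were higher and CDK9 and SUPT5H lower, and the authors' deposited table had none past a false discovery rate of 0.05 in the other 12 hgRNAs.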

How the data were processed

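Total RNA after ribosomal depletion was measured in 34 libraries of 17 hgRNA groups. The deposited splicing table holds, per the file headers, the percent retention per event and library, and quality strings with the read counts behind it, made by the authors, by the name of the table with vast-tools; its version, the aligner and the genome build were not given in the sources used, and 4 columns of other libraries were not used. The deposited expression table holds RPKM, log2 fold changes and FDR-adjusted p-values from the authors, with replicates combined; Salmon 1.10 and edgeR are named in the submitters' processing notes.

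All 14547 intron positions matched introns of GENCODE v29 (GRCh38), and an exon counted as lying over an end when it reached 8 bases past it. In R 4.3.3, limma 3.58.1 was fitted to log2((inclusion + 1)/(exclusion + 1)) with a coefficient per hgRNA and a trended prior (17 residual and 14.2 prior degrees of freedom), for events that reached 20 reads in all libraries compared, and p-values were adjusted by Benjamini-Hochberg over all events. The residual spread is thus that between duplicates of the same hgRNA. Differences between the hgRNAs of a set do not enter the SE or the p-value. The fits were tested on simulated data, with changes placed only in introns more retained in controls than most long introns are. That test therefore does not cover calls of introns near 0% retention. Tables were read with Python 3.11.15. First-junction values used introns with 80 exon-exon reads over the controls and 0.05 CPM added. Introns were named by rule: in each comparison up to 8 more and 4 less retained with the largest difference among those called with every library beyond the controls, those called in most comparisons, those of edited and detained-intron genes, the longest and those nearest the threshold. The 10 highest controls of the rule were ties at 100%, and others were named in their place. The introns, lists and tests were chosen with earlier results of these data known. Of the 136 possible group pairs, 9 showed replicate differences correlated above 0.1 (median -0.00302), among them all 6 pairs of knockouts and none of the 8 pairs of a knockout and a control. Replicate differences were therefore shared among the knockouts and not between a knockout and a control. The other pairs above 0.1, the highest at 0.413, are not named here. Pairs of a deletion and a control were not counted separately, so a link between those libraries was not tested.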

Additional observations from a re-analysis of the deposited data

Results flagged for a closer look

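In 58 sets of 4 libraries, 5 had a library far from the other 3 by Dixon's criterion, and chance alone would flag about 1 in 20. In the DDX5 deletion the upstream end held 59.2% of the exon-intron reads of long introns in the lowest library, against 59.6% to 59.7% in the other 3. The first-junction shift was 0.30 in DDX17 deletion hgRNA 1 replicate 2, against -0.33, -0.28 and -0.27 in the other DDX17 deletion libraries, and the median retention was 0.27% in that library against 0.57%, 0.51% and 0.46% in the other 3. MEF2A intron 4 had 4.81% in control hgRNA 1 replicate 1, against 9.99% to 10.26% in the other controls. LONP2 intron 1 had 1.75% in control hgRNA 1 replicate 1 and FHOD3 intron 19 had 0.71% in control hgRNA 2 replicate 1, and each was at 0% in the other controls.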

How the results depend on the processing

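The counts of long introns called by limma were 64 in the DDX5 deletion, 19 in the FNBP4 PTC exon deletion, 8 in the libraries labelled HDAC7 knockout, 4 in the FNBP4 knockout, 2 in the HNRNPD deletion, 1 in the DDX5 knockout and 0 in the other 4 comparisons. These counts depended on the processing. A pseudocount of 0.5 gave 24, 8, 5 and 1 calls in the DDX5 deletion, FNBP4 PTC exon deletion, labelled HDAC7 knockout and HNRNPD deletion, and a minimum of 50 reads gave 31, 8, 0 and 1. A minimum of 10 reads gave 19 in the labelled HDAC7 knockout, 7 in the FNBP4 knockout, 3 in the DDX5 knockout, 2 in the DDX17 deletion, 1 in the HDAC7 deletion and the DDX17 knockout and 0 in the HNRNPD deletion. Without the trend in the prior the DDX5 deletion had 111, the labelled HDAC7 knockout 5, the FNBP4 knockout 2, the HNRNPD deletion 1 and the DDX5 knockout 0. Precision weights gave 233 in the DDX5 deletion, 40 in the labelled HDAC7 knockout, 37 in the FNBP4 PTC exon deletion, 29 in the HNRNPD deletion, 24, 19 and 18 in the FNBP4, DDX5 and DDX17 knockouts and 1 in the FNBP4 intron deletion.

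Against control hgRNA 1 alone the counts were 20 in the DDX5 deletion, 9 in the FNBP4 PTC exon deletion, 5 in the labelled HDAC7 knockout, 2 in the FNBP4 knockout and 0 in the HNRNPD deletion and DDX5 knockout, and against control hgRNA 2 alone they were 4, 2, 1, 0, 0 and 0. Fitted on its own libraries only, the DDX5 deletion had 72 and each of the other comparisons 0. Introns fitted alone gave 3 in the FNBP4 PTC exon deletion and labelled HDAC7 knockout, 1 in the HNRNPD deletion, DDX17 knockout and FNBP4 knockout, and 0 in the DDX5 knockout. Over 10000 bases there were 39 in the DDX5 deletion, 10 in the FNBP4 PTC exon deletion and 0 in the DDX5 knockout. Introns balanced in the controls gave 1 in the HNRNPD deletion and FNBP4 knockout.

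The settings of this paragraph, the sets without an exon over an end and the left-out libraries for retention and for the balance of ends were chosen after seeing the data. A mean of at least 1 inclusion and 1 exclusion read gave 22 in the DDX5 deletion, 2 in the FNBP4 PTC exon deletion and 0 in the HNRNPD deletion, DDX5 knockout and labelled HDAC7 knockout. The arcsine square root gave 21 in the DDX5 deletion, 5 in the HNRNPD deletion, 4 in the FNBP4 intron deletion and DDX17 knockout, 3 in the DDX5 and labelled HDAC7 knockouts, 2 in the DDX17 and FNBP4 PTC exon deletions and 1 in the HDAC7 deletion. Upstream reads alone gave 40 in the DDX5 deletion, 9 in the FNBP4 knockout and 2 in the DDX17 knockout. Downstream reads alone gave 107 in the DDX5 deletion, 30 in the FNBP4 PTC exon deletion, 14 in the labelled HDAC7 knockout, 4 in the HNRNPD deletion and 1 in the DDX17 knockout. Each hgRNA alone gave 11 and 10 in the DDX5 deletion, 9 and 3 in the FNBP4 PTC exon deletion, 1 in the HDAC7 deletion (hgRNA 1) and 1 in the DDX17 deletion (hgRNA 2). Junction reads as counted gave 1 in the HNRNPD deletion, and without first introns 32 were left in the DDX5 deletion and 4 in the labelled HDAC7 knockout. The cause of these differences was not tested.

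Leaving out 1 library at a time gave 6 to 62 calls in the DDX5 deletion, 0 to 87 in the DDX17 deletion, 2 to 148 in the FNBP4 PTC exon deletion, 0 to 7 in the HDAC7 deletion, 0 to 2 in the HNRNPD deletion, 0 to 4, 0 to 3, 1 to 47 and 1 to 13 in the DDX5, DDX17, FNBP4 and labelled HDAC7 knockouts, and 0 in the FNBP4 intron deletion. Knockouts and the HNRNPD deletion then have 1 edited library, which is assumed to vary like the other groups. With the replicate block the DDX5 deletion had 63, the FNBP4 PTC exon deletion 18, the labelled HDAC7 knockout 8, the FNBP4 knockout 5, the HNRNPD deletion, DDX5 knockout and DDX17 knockout 1 each, and other comparisons 0. The numbers did not pair knockouts with controls, although the 4 knockouts moved together by number (correlations of 0.204 to 0.295). Pairs of a deletion and a control were not counted separately.

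The control median of 0.485% was 0.445% over introns with 20 reads in all 34 libraries, 2.30% with reads summed over introns, and 0.467% to 0.497% with 1 library left out. The difference of 0.388 points for the DDX5 deletion was 0.3 with 20 reads in all libraries and 0.362 to 0.432 with 1 left out. Of all exon-intron reads of long introns 60.6% were upstream in controls, 73.8% as a median over introns with 10 such reads, 56.8% with no exon over an end, and 60.3% to 60.7% with 1 library left out. Of the values for named called introns, 269 kept their direction and call, 303 kept their direction without the call and 2 changed direction. DNAJB6 in the FNBP4 PTC exon deletion was 0.40 on downstream reads alone and VMP1 in the FNBP4 knockout was 0.19 on upstream reads alone. Those ends had at most 2 reads (DNAJB6) and 1 read (VMP1) in each library compared.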
